A study of Mus musculus with 4 samples.

Results

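The STAT proteins are transcription factors that carry signals from cytokine receptors to the nucleus, and their transcripts are described here in mouse dendritic cells. All probe sets annotated to Stat2, Stat3, Stat4, Stat5a, Stat5b or Stat6 were taken, which gave 12 of the 22690 probe sets on the array and 6 of the 12393 genes that probe sets with 1 gene symbol name. Other genes of the family were not analysed here. No probe set with several gene symbols included a member. Per the labels, total RNA came from CD11c+ dendritic cells of IL10-/- genotype, so all groups, the control included, share that deficiency. The cells were kept for 6 h under 4 conditions, namely media only, SEA, LPS, and the combination of SEA and LPS (SEA/LPS). Each group was 1 sample on 1 array, the arrays carry the same lot label, and no label names the tissue of origin, the doses, the animals or the cultures. LPS is bacterial lipopolysaccharide, which TLR4 senses. SEA stands unexpanded in the labels; the abbreviation is commonly used for soluble egg antigen of schistosomes.

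A cytokine binds its receptor, receptor-bound Janus kinases phosphorylate a STAT, and the paired STATs enter the nucleus and bind DNA. STAT2 works with IRF9 in the complex that switches on antiviral genes after type I interferon. STAT3 carries signals of IL-6 and IL-10, STAT4 those of IL-12, STAT5A and STAT5B those of GM-CSF and of cytokines that use the common gamma chain, and STAT6 those of IL-4 and IL-13. In dendritic cells GM-CSF signalling supports the growth of the cells, and the IL-10 arm through STAT3 restrains their activation. LPS itself does not act on a STAT directly, but the cytokines that it elicits do.

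The values are array signals as the authors deposited them, and each comparison is a log2 difference of 1 array from another. A floor was set at 33.3, the 40th percentile of all values, and lower signals were raised to it, so where an array was at the floor the difference is only a bound from below. With 1 array per group no difference has a replicate check, no test was possible, and their number limits the precision. A probe set was counted as higher or lower when the difference reached 2-fold and its brighter signal exceeded the floor. All 12 STAT probe sets were above the floor on at least 1 array, the Stat4 probe set only with SEA/LPS and Stat2 1421911_at only with LPS and SEA/LPS. Signals of different probe sets are not on a common scale, so only differences are compared between them.

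The 2% trimmed mean was 150.1 on each array, and 57.3% to 61.1% of all probe sets lay above the floor, with SEA/LPS the lowest. Of 13 dendritic cell markers, 12 or 13 were above the floor on every array, Itgax (the CD11c gene) among them. All 6 macrophage markers with a probe set were above it on every array too, so this reading does not tell these cell types apart. The libraries are labelled IL10-/-, yet the Il10 probe set read 37.9 in media, 52.1 after SEA, 303.6 after LPS and 93.0 after SEA/LPS. The sources do not place this probe set against the disrupted part of the gene, so the signal neither checks the genotype label nor stands for a working cytokine. The Gapdh 3' to 5' signal ratio, a sign of RNA integrity, ran from 2.21 in media to 3.12 with SEA/LPS. Its part in the differences below was not tested. The SEA/LPS over LPS and LPS over media comparisons share the LPS array, and comparisons over media share the media array. Each is therefore given with its own values.

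Promoter sequence is shown for the 3 genes whose brightest probe set was more than 2-fold higher with LPS and more than 2-fold lower with SEA/LPS. Stat5b fell outside this rule, with 0.71 log2 for LPS over media on its brightest probe set. Its other probe set, 1422102_a_at, passed both sizes (1.22 and -1.38). For Stat3 the other 2 probe sets did not share the lower SEA/LPS signal. The letters are the 250 bases before the first RefSeq start of the table in build GRCm38.p6, 5' to 3' on the strand of the gene. Capitals mark matches on either strand to 4 motifs, spelled below, and every other base is in lower case. Stat5a has a second listed start, not shown, whose window holds further kappaB-type matches.
Stat2, chr10:128270248-128270497, plus strand: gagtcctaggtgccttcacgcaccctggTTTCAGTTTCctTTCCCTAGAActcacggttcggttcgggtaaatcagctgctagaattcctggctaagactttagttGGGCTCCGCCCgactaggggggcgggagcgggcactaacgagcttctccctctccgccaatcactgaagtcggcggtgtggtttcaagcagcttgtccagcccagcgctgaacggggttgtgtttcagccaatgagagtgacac
Stat5a, chr11:100859406-100859655, plus strand: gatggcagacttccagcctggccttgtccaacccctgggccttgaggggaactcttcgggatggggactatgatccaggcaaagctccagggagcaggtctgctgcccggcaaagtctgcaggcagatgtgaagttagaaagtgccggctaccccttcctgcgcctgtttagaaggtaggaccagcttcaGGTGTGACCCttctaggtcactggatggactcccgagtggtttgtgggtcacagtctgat
Stat3, chr11:100939541-100939790, minus strand: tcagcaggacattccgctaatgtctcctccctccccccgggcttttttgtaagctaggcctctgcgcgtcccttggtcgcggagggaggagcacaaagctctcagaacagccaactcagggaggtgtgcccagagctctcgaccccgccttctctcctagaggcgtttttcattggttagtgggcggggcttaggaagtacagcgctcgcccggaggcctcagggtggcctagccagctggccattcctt

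The first motif, written GAAA, any 2 bases and GAAA, is the core of the interferon-stimulated response element bound by STAT2-containing complexes. It matched the Stat2 promoter as TTTCAGTTTC on the opposite strand, from base -222 to base -213 before the start. This core is in 3.44% of the 32851 promoters of the table, each 300 bases long. Among the member genes a second match, GAAAGTGAAA, lay from base -97 to base -88 before the second of the starts listed for Stat4. The motif TTC, any 4 bases and GAA, the spacing associated with STAT6, matched Stat2 as TTCCCTAGAA from base -210 to base -201 and is in 6.95% of promoters. The STAT motif TTC, any 3 bases and GAA, in 8.30% of promoters, had no match in these windows of any member. The loose kappaB-type motif of GGG, any 5 bases and CC matched at least 1 start of Stat2, Stat4, Stat5a, Stat5b and Stat6, but it is in 50.8% of promoters, and adjacent matches on both strands can overlap. A match describes letters in a window and not a bound site.

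Stat2 was the interferon-pathway member with the clearest course over the 4 arrays. On 1450403_at the signal was 78.6 in media, 82.3 after SEA, 754.6 after LPS and 100.6 after SEA/LPS. Only the LPS array was high, and the other 3 lay close to each other. The log2 difference was 3.26 for LPS over media (9.60-fold higher) and -2.91 for SEA/LPS over LPS (7.50-fold lower). In bulk RNA, fewer cells with the transcript and less transcript per cell cannot be told apart. The second Stat2 probe set, 1421911_at, read 24.6 in media, 4.0 after SEA, 211.9 after LPS and 66.5 after SEA/LPS. It shared the order of LPS first and SEA/LPS second, with media and SEA at the floor. It was at least 6.36-fold higher with LPS than in media and with SEA/LPS it was 3.19-fold under the LPS signal. Both probe sets were designed from the same sequence record, and their SEA/LPS over LPS differences lay 1.24 log2 apart. For comparison, the 2405 genes with at least 2 probe sets above the floor on both of those arrays had a median gap of 0.34 between the 2 brightest, with 90% of gaps under 0.98.

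Stat5a, the member best known for GM-CSF signalling in these cells, had the widest swing. On 1450259_a_at the signal was 73.7 in media, 53.2 after SEA, 814.5 after LPS and 86.8 after SEA/LPS. The LPS array again stood alone. This probe set was 11.1-fold higher with LPS than in media and with SEA/LPS 9.38-fold under its LPS signal (-3.23 log2). None of the 14423 probe sets measured had a lower difference in the second of these comparisons, and Stat2 1450403_at had 7 probe sets below it. On 1421469_a_at, designed from the same record, Stat5a read 176.6 in media, 120.6 after SEA, 872.6 after LPS and 260.6 after SEA/LPS. The order of the 4 arrays was the same, 4.94-fold higher with LPS than in media and -1.74 log2 for SEA/LPS over LPS. The gap between the 2 probe sets was 1.16 log2 for LPS over media, where 90% of genes had a gap under 1.03, and 1.49 for SEA/LPS over LPS. Direction was therefore shared and size was not. SEA alone gave -0.47 and -0.55 log2 from media.

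Stat5b, the close paralogue of Stat5a, was also highest on the LPS array, with a smaller swing. On 1422102_a_at the signal was 75.6 in media, 78.1 after SEA, 176.5 after LPS and 67.9 after SEA/LPS. On 1422103_a_at it was 132.0, 129.7, 216.4 and 87.1 in the same order. Only LPS was high on both probe sets, and SEA/LPS was the lowest array on both. LPS over media was 1.22 log2 on the former and 0.71 on the latter, so only the former reached 2-fold. SEA/LPS over LPS was -1.38 and -1.31, a gap of 0.07. SEA/LPS over media was -0.15 and -0.60, and the former turned to 0.05 with scaling to the 75th percentile and 0.07 with quantile normalization. Stat5a and Stat5b are very similar genes, and whether a probe set of either also binds the other was not tested.

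**Figure D1:**
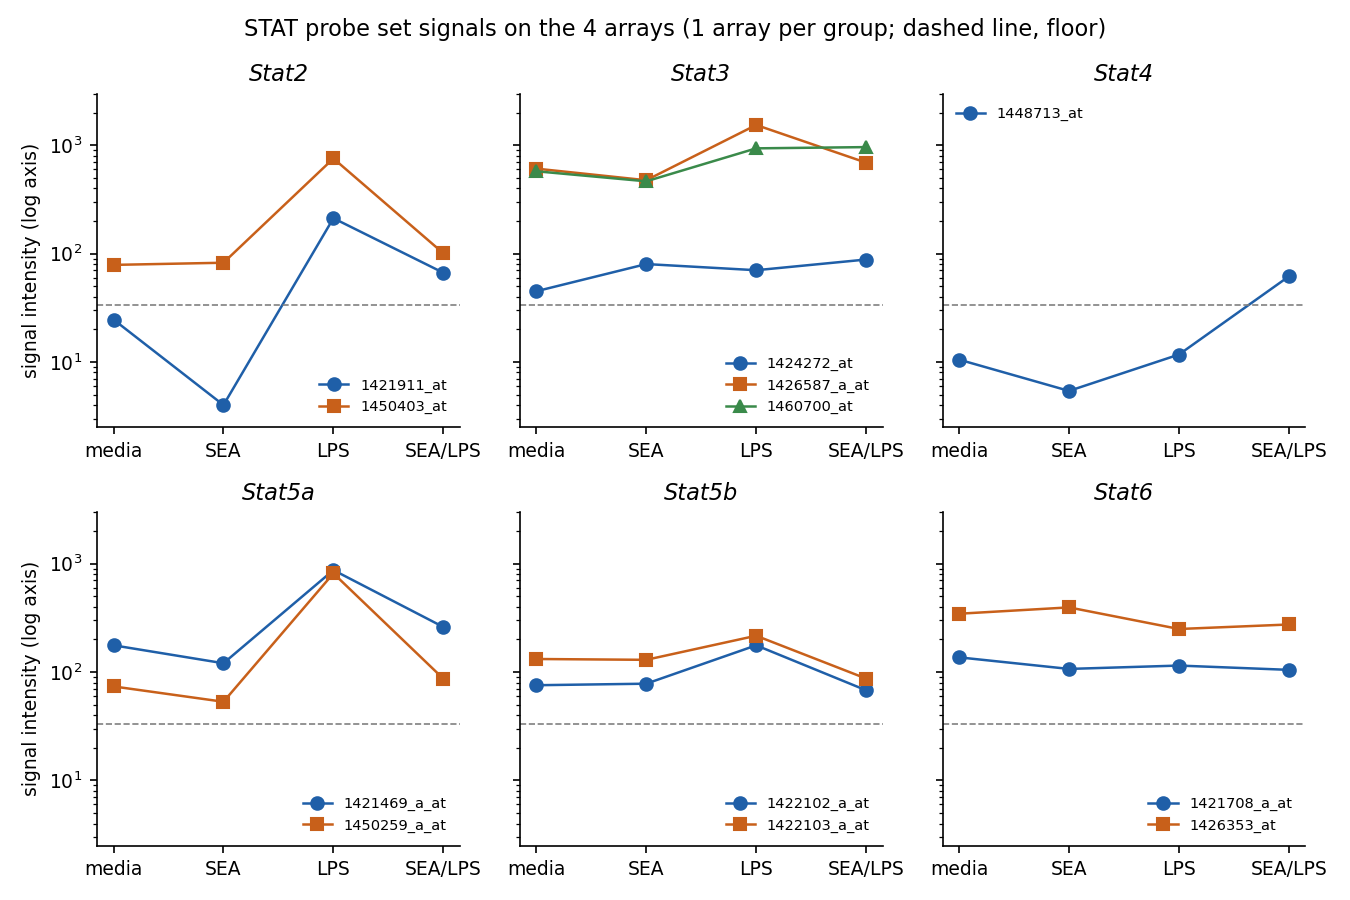
Signal intensity (log axis) of each STAT probe set on the 4 arrays, 1 panel per gene, with lines joining the values of 1 probe set and a dashed line at the floor of 33.3. Stat2, Stat5a and Stat5b are highest on the LPS array. With SEA/LPS, Stat2 and Stat5a lie between media and LPS, and Stat5b lies below media. The 3 probe sets of Stat3 part ways on the SEA/LPS array, and Stat6 stays nearly level.

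Stat3, the factor of IL-6 and IL-10 signalling, gave different answers on its 3 probe sets. On 1426587_a_at the signal was 607.9 in media, 475.0 after SEA, 1536.9 after LPS and 690.1 after SEA/LPS. On this probe set LPS was high and SEA/LPS was near media, with differences of 1.34 log2 for LPS over media and -1.16 for SEA/LPS over LPS. On 1460700_at the signal was 574.7 in media, 464.3 after SEA, 935.4 after LPS and 960.3 after SEA/LPS. Here both arrays with LPS were high, LPS over media was 0.70 and SEA/LPS over LPS was 0.04. On 1424272_at the signal was 44.9 in media, 80.0 after SEA, 70.2 after LPS and 88.1 after SEA/LPS, all near the floor of 33.3. Media was the low array on this probe set, and SEA/LPS over LPS was 0.33. All 3 were higher with LPS than in media, by 0.64 to 1.34 log2. With scaling to the hybridisation controls these values were 0.09 on 1424272_at, 0.15 on 1460700_at and 0.79 on 1426587_a_at. The SEA/LPS over LPS differences spanned 1.48 log2. The mean of the 3 probe sets gave -0.26 for that comparison in place of -1.16, so the lower Stat3 signal with SEA/LPS rests on 1 probe set.

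Stat6, the IL-4 and IL-13 factor, differed little between arrays. On 1426353_at the signal was 345.4 in media, 395.2 after SEA, 249.7 after LPS and 274.8 after SEA/LPS. On 1421708_a_at it was 136.7, 106.9, 114.8 and 104.8 in the same order. Neither probe set reached 2-fold in any comparison, and their LPS over media differences were -0.47 and -0.25. The SEA over media differences had opposite signs, 0.19 and -0.35.

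Stat4, the IL-12 factor best known from T cells and NK cells, was at the floor on 3 arrays. Its probe set 1448713_at read 10.5 in media, 5.4 after SEA, 11.7 after LPS and 61.6 after SEA/LPS. It was thus the only STAT gene whose sole array above the floor was SEA/LPS, at least 1.85-fold above each of the other arrays, which is under the 2-fold size. The SEA/LPS over LPS value of 0.89 depends on the floor, at 0.29 with the floor at percentile 50 and 1.63 at percentile 30. Markers of other cells that can express it were read on the same arrays, and their part in the result was not tested. All 11 T cell markers with a probe set were at the floor with SEA/LPS, including Cd3d, Cd3e, Cd3g and Lat, and their summed signal was 137 there against 194 to 256 on the other arrays. For 7 NK cell markers the sum was 186 with SEA/LPS and 169 to 216 elsewhere. Of these, 4 were at the floor in media, 6 after SEA, 4 after LPS and 3 after SEA/LPS. Klrd1, Gzmb and Nkg7 were at the floor on all 4 arrays. Ncr1 (34.4), Eomes (35.3), Gzma (41.1) and Prf1 (42.7) were above it with SEA/LPS, and each read higher on another array.

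**Figure D2:**
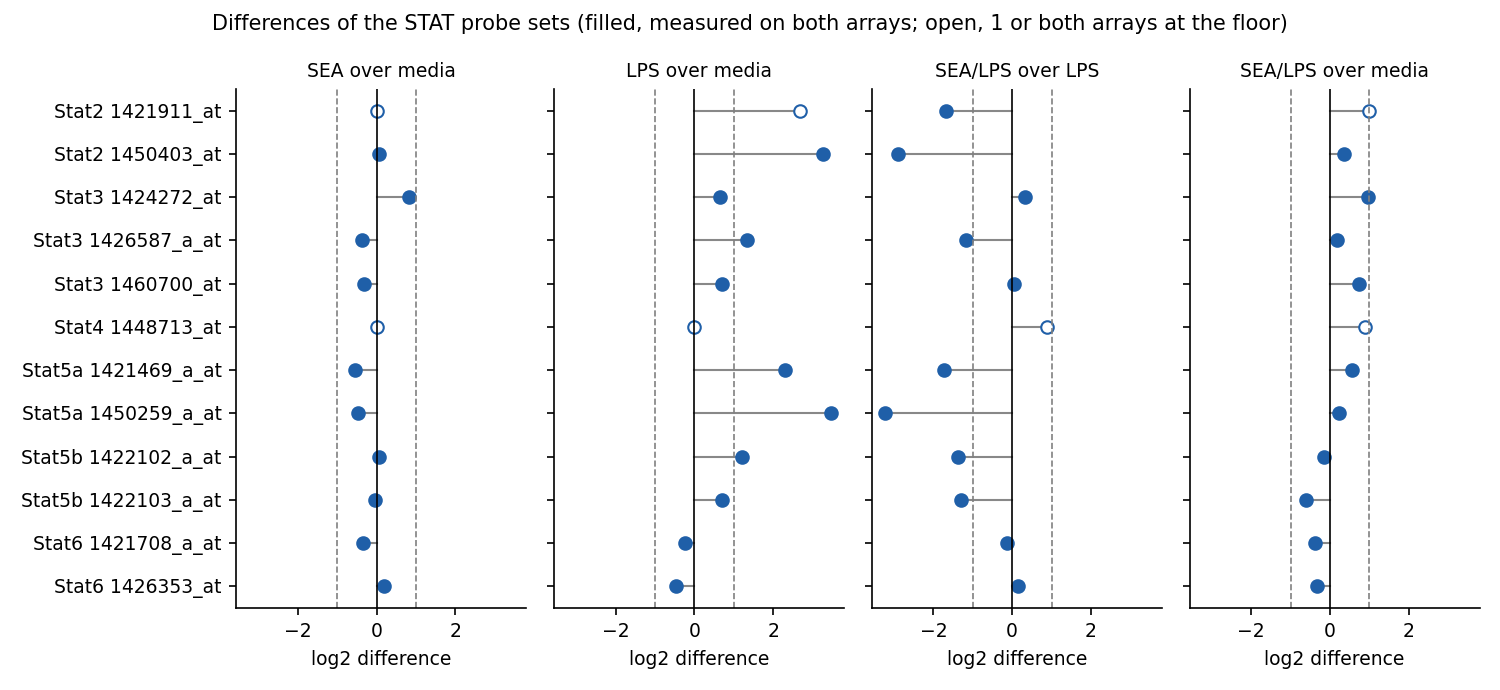
Log2 difference of each STAT probe set in 4 comparisons, with filled points measured on both arrays, open points with an array at the floor and dashed lines at 2-fold. With LPS over media 6 points lie beyond the upper line, with SEA/LPS over LPS 7 lie beyond the lower line, and none does with SEA over media or SEA/LPS over media.

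Over the 12 probe sets, LPS over media had 6 at least 2-fold higher and 0 lower, where 6.29% of the 14423 measured probe sets were higher and 8.29% lower. The 6 were both probe sets of Stat2 and of Stat5a, and 1 each of Stat3 and Stat5b. The median log2 difference of the 12 STAT probe sets was 0.97 against -0.04 for all measured probe sets. SEA/LPS over LPS had 7 lower and 0 higher, where 4.34% were lower and 1.51% higher, and its median was -1.23 against 0.00. The 7 were both probe sets of Stat2, Stat5a and Stat5b, and 1 of Stat3. Several of these probe sets share a gene or a sequence record and are not independent of each other.

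SEA without LPS gave no STAT probe set past 2-fold in either direction, where 0.666% of probe sets were higher and 0.867% lower. The values ran from -0.55 for Stat5a 1421469_a_at to 0.83 for Stat3 1424272_at, with a median of -0.01. The other 2 Stat3 probe sets gave -0.36 and -0.31 in this comparison.

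Against media, SEA/LPS also gave 0 probe sets past 2-fold higher and 0 lower, where 4.49% of probe sets were higher and 7.08% lower. The nearest to 2-fold were Stat2 1421911_at, whose bound against the floored media signal lay just under 2-fold, and Stat3 1424272_at at 0.97. Set against SEA alone, SEA/LPS had 2 probe sets higher and 0 lower, where 4.67% were higher and 6.18% lower. These were Stat5a 1421469_a_at (1.11 log2) and Stat3 1460700_at (1.05).

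A difference of differences, SEA/LPS over LPS minus SEA over media, was at least 2-fold below 0 for 6 STAT probe sets and above 0 for 0, where 6.73% of probe sets were below and 3.50% above. It was -2.97 for Stat2 1450403_at, -2.76 for Stat5a 1450259_a_at, -1.43 for Stat5b 1422102_a_at and 0.35 for Stat3 1460700_at. The 6 were all probe sets of Stat2, Stat5a and Stat5b. For Stat2 1421911_at the value of -1.67 uses floored media and SEA signals, and it was -0.44 without a floor. With scaling to the hybridisation controls 4 of the 6 stayed past 2-fold, and of all probe sets called in this comparison 75.1% were above 0 in place of 34.2%. With quantile normalization that share was 47.9%.

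**Figure D3:**
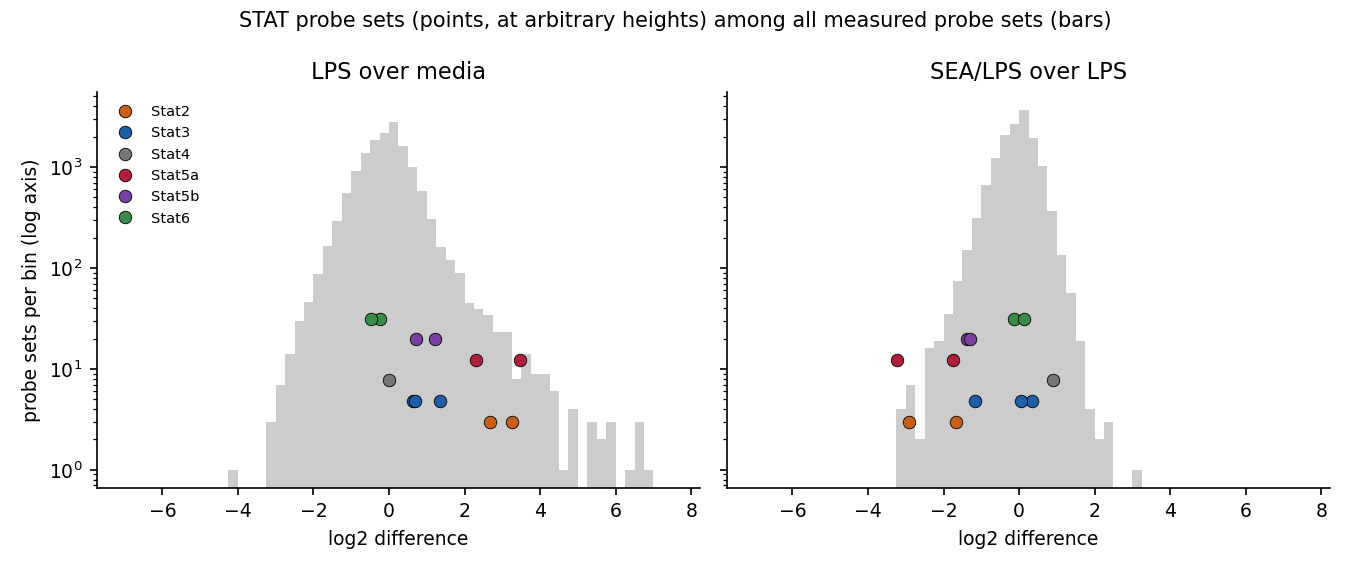
Number of measured probe sets per log2 difference bin (bars, log axis) with the 12 STAT probe sets as coloured points at heights that carry no value. With LPS over media Stat2 and Stat5a lie in the upper tail, and with SEA/LPS over LPS a Stat5a point at -3.23 marks the lower end of the distribution.

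How the arrays are scaled shifts these values together. When the arrays were scaled to 18 hybridisation control probe sets, the median of all probe sets moved from -0.04 to -0.53 for LPS over media, and 10.9% of the called probe sets were higher in place of 43.1%. With scaling to the 75th percentile that share was 56.8%. For SEA/LPS over LPS, 25.8% of called probe sets were higher as deposited, 35.5% with the 75th percentile, 39.4% with quantile normalization and 61.4% with the hybridisation controls. For SEA/LPS over media the share was 38.8% as deposited, 57.8% with the 75th percentile, 51.8% with quantile normalization and 16.1% with the hybridisation controls. For SEA/LPS over SEA it was 43.0%, 62.8%, 57.6% and 22.8% in that order, and for SEA over media it was 43.4% as deposited and 32.5% with the hybridisation controls. The 6 STAT probe sets called with LPS stayed above 0 under these 3 scalings, and the 7 called lower with SEA/LPS stayed below 0. With the hybridisation controls Stat3 1426587_a_at read 0.79 and Stat5b 1422102_a_at 0.67 for LPS over media, both under 2-fold. Stat3 1426587_a_at read -0.92 for SEA/LPS over LPS in that setting, and Stat6 1426353_at reached -1.02 for LPS over media.

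**Figure D4:**
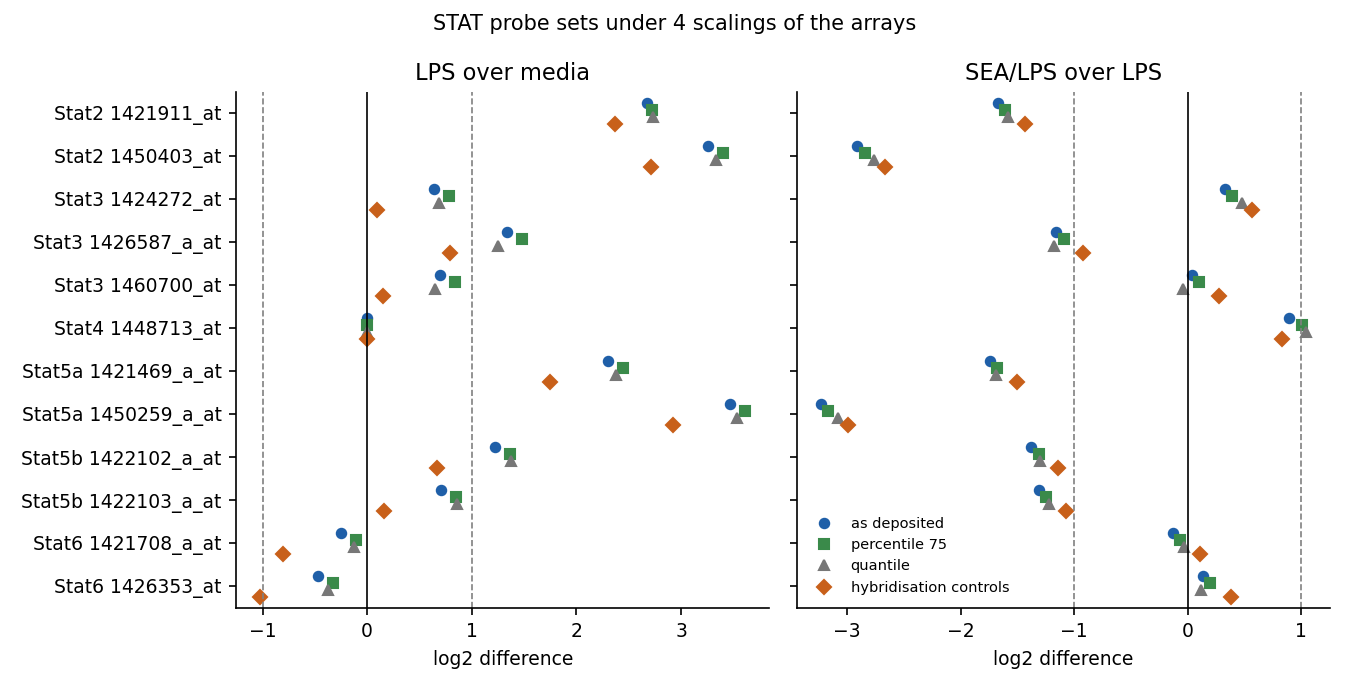
Log2 difference of the STAT probe sets with the arrays as deposited and under 3 other scalings, in 1 panel for LPS over media and another for SEA/LPS over LPS, with dashed lines at 2-fold. Scaling to the hybridisation controls moves the points to the left with LPS and to the right with SEA/LPS over LPS, except Stat4, which stays at 0 in the former and goes from 0.89 to 0.83 in the latter, and Stat2 and Stat5a stay past 2-fold under each.

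The pathway around the STATs was described with gene lists, each gene by its brightest probe set. Ligands came first. Of 11 measured ligand genes that signal through STATs, 8 were at least 2-fold higher with LPS than in media and 0 lower, where 6.06% of the 9473 measured genes were higher and 8.43% lower. Il6, which acts through STAT3, went from 42.3 to 5389, and Il15, a common gamma chain cytokine, was 4.16 log2 higher. Il10, also among the 8, is a transcript signal from libraries labelled IL10-/- and cannot be read as ligand. With SEA/LPS over LPS 6 of the 11 ligand genes were lower and 0 higher, where 3.47% of genes were lower and 1.39% higher. They were Il23a (-2.81), Il12b (-2.75), Ebi3 (-1.75), Il10 (-1.71), Ifnb1 (-1.33) and Il12a (-1.09). Ifnb1 encodes interferon beta, the type I interferon upstream of STAT2, and read 37.3 in media, 29.8 after SEA, 129.0 after LPS and 51.4 after SEA/LPS. SEA without LPS had 1 ligand higher, Il6 at 139.5, and 0 lower, where 0.644% of genes were higher and 0.633% lower. The list median was 1.79 for LPS over media and -1.09 for SEA/LPS over LPS, against -0.06 and -0.01 for all genes, and over the settings tried the SEA/LPS over LPS median of the ligands ran from -1.33 to -0.31.

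Receptor chains numbered 26 measured genes, of which 4 were higher and 2 lower with LPS, where 6.06% of genes were higher and 8.43% lower. Il15ra, the IL-15 receptor alpha chain, was at least 17.3-fold higher and Il13ra1, a chain of the IL-13 receptor, 1.25 log2 higher. Il6st, the gp130 chain shared by IL-6 family receptors, was -1.28, and Csf2rb, the beta chain of the GM-CSF receptor, was -1.19 with signals of 3138.7 in media, 2685.8 after SEA, 1375.8 after LPS and 2740.6 after SEA/LPS. Csf2rb was thus low only on the LPS array, the array on which Stat5a was high. Csf2ra, another chain of the GM-CSF receptor, was -0.35 for LPS over media, so this holds for Csf2rb and not for the receptor as a whole. With SEA/LPS over LPS 0 receptor chains were higher and 2 lower, where 1.39% of genes were higher and 3.47% lower. Csf3r, the G-CSF receptor, was at least 3.26-fold lower and Osmr, the oncostatin M receptor, at least 2.33-fold lower. Both type I interferon receptor chains, Ifnar1 and Ifnar2, lay within 2-fold throughout. The list median of 0.33 for LPS over media turned to -0.14 under scaling to the hybridisation controls.

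Of the 4 Janus kinases only Jak2 passed 2-fold. With LPS over media 6.06% of genes were higher and 8.43% lower, and a count of 1 in 4 cannot be told from those shares. The Jak2 signal was 585.4 in media, 632.0 after SEA, 1694.8 after LPS and 1796.6 after SEA/LPS, so both arrays with LPS were high. The other kinases were Jak1, Jak3 and Tyk2, with LPS over media differences of 0.23, -0.26 and 0.18. For SEA/LPS over LPS the 4 kinases ran from -0.62 for Jak3 to 0.11 for Jak1.

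Inhibitors of the pathway were represented by 17 measured genes, of which 4 were higher with LPS and 0 lower, where 6.06% of genes were higher and 8.43% lower. Usp18, which dampens type I interferon receptor signalling, was 4.34 log2 higher, Socs3, an inhibitor of gp130 signalling, 2.96, Socs1 1.18 and the phosphatase gene Ptpn6 1.02. With SEA/LPS over LPS 0 of 17 were higher and 0 lower, where 1.39% and 3.47% of genes were, with Usp18 at -0.09, Socs3 at -0.41 and Socs1 at 0.29. Of 5 measured partners and coactivators Pml (2.39) and Nmi (1.67), which encodes a STAT-interacting protein, were higher with LPS. Irf9, the DNA-binding partner of STAT2, read 97.0 in media, 89.6 after SEA, 108.2 after LPS and 142.3 after SEA/LPS, and did not reach 2-fold in any comparison. The medians of the kinase, inhibitor and partner lists for LPS over media, 0.21, 0.05 and 0.16, turned to -0.34, -0.50 and -0.39 under scaling to the hybridisation controls.

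**Figure D5:**
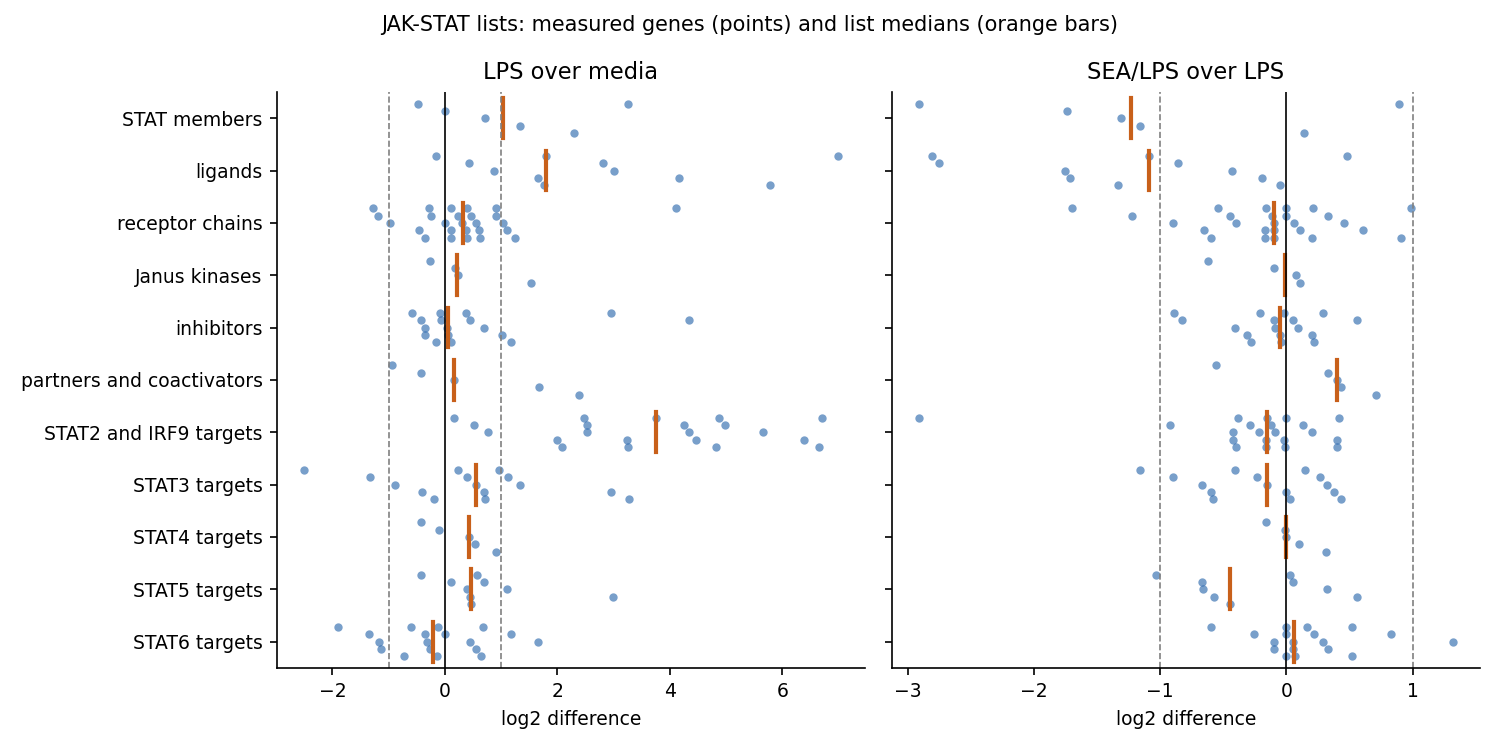
Log2 difference of every measured gene of the JAK-STAT lists (points) with list medians (orange bars) and dashed lines at 2-fold. For SEA/LPS over LPS the STAT and ligand medians lie near -1, while the STAT2 and IRF9 targets lie within 2-fold apart from Stat2 itself.

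Genes known as targets of the STATs were set beside the factors. Of 21 measured STAT2 and IRF9 targets, a list that holds Stat2 and Irf9 themselves, 18 were higher with LPS and 0 lower, where 6.06% of genes were higher and 8.43% lower, and the median was 3.75 log2. Ifit2 was at least 105-fold higher, Oasl1 at least 6.65 log2, Cmpk2 6.38 log2 and Ifit1 5.66 log2. With SEA/LPS over LPS only Stat2 of the 21 was past 2-fold lower and 0 were higher, where 3.47% of genes were lower and 1.39% higher, and the median was -0.15. Against media, SEA/LPS had 17 of the 21 higher and 0 lower, where 4.54% of genes were higher and 7.05% lower. Ifit1 read 8559.8 with LPS and 6988.1 with SEA/LPS, and Mx1 read 2653.0 and 2906.4. Ifit1 and Mx1 thus stayed near their LPS signals on the array on which Stat2 1450403_at was 7.50-fold lower and 1421911_at 3.19-fold lower. Cmpk2, the lowest of the list after Stat2 for SEA/LPS over LPS, read 6486.5 with LPS and 3428.5 with SEA/LPS (-0.92). The difference of differences was at least 2-fold below 0 for 5 of the 21, Stat2 and Cmpk2 among them, and above 0 for 0. Of all measured probe sets 6.73% were below and 3.50% above. For SEA/LPS over LPS 15 of the 21 lay below 0 and 6 above, where 42.2% of all measured probe sets lay above 0. Mx1 was chosen as an example after its values were seen. The median of this list for SEA/LPS over LPS ran from -0.15 to 0.09 over the settings tried, so its sign is not fixed.

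For the targets of the other STATs the same shares of all genes apply, 6.06% higher and 8.43% lower with LPS, and 1.39% higher and 3.47% lower with SEA/LPS over LPS. A count of 1 or 0 in such short lists cannot be told from those shares. Of 15 STAT3 targets, Stat3 included, 4 were higher with LPS, among them the IL-1 receptor antagonist gene Il1rn (3.27) and Socs3, and 2 were lower, Cebpd (-1.34) and Myc, which was at least 5.71-fold lower. With SEA/LPS over LPS Stat3 was the only member of that list past 2-fold. Of 9 STAT5 targets, Ccnd2, which encodes cyclin D2, and Il2ra were higher with LPS (2.99 and 1.11) and Ccnd2 was the 1 lower with SEA/LPS over LPS (-1.03). Cish and Socs2, feedback inhibitors induced by STAT5, were within 2-fold in both comparisons. Of 18 STAT6 targets 2 were higher with LPS, with Ccl22 at 1.65, and 4 were lower, with Egr2 at -1.91, Klf4 at -1.35 and Mrc1 at -1.18. Egr2 was the 1 member higher with SEA/LPS over LPS (1.32). Of 5 measured STAT4 targets 0 were past 2-fold in either comparison, and Ifng, Tbx21 and Il21 were at the floor on all arrays.

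The genes with the pattern most like each STAT gene were ranked by the root mean square (RMS) gap of 3 log2 differences from media, over 4 arrays and 7137 genes above the floor on each. For Stat2 1450403_at the nearest were Il10 (0.61, with the limit on that probe set given above), Sh3tc1 (0.61) and Gadd45b (0.63), and 0 genes lay within 0.25. For Stat5a 1421469_a_at they were Sh3tc1 (0.21), Pla1a (0.34) and Tapbp (0.34), with 1 gene within 0.25. Stat5a 1450259_a_at, the probe set with the wider swing, was not ranked. For Stat3 1426587_a_at they were Galnt16 (0.05), Serpinb9b (0.13) and Hoxb4 (0.14), with 17 genes within 0.25. For Stat5b 1422103_a_at they were Ckb (0.05), Wdr48 (0.06) and Dmap1 (0.07), with 83 genes within that radius. Under quantile normalization 0 of the 3 genes named for Stat3 stayed among its nearest 3, and 2 of 3 did for Stat2, Stat5a and Stat5b. Stat4 and Stat6 spanned less than 1 log2 over the arrays and were not ranked.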

How the data were processed

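The study gave total RNA of 4 dendritic cell samples, 1 array each, and the authors' deposited table of probe set signals. The values are linear 1-colour intensity as deposited by the authors, judged from the values: their 2% trimmed mean was 150.1 on every array, so the arrays had been scaled alike. For the software, background step and scaling rule: not given in the sources used here. Such scaling hides a difference in total RNA content. The array annotation named genes: of 22690 probe sets 64 were controls, 20380 had 1 symbol, 691 several and 1555 none, and Entrez identifiers of 20351 matched the GRCm38.p6 gene table, the 12 STAT probe sets among them. The floor was the 40th percentile of all values (33.3), lower signals were set to it, and log2 was taken. A gene was represented by its probe set with the highest mean log2, which gave 9473 measured genes. With 1 sample per group, size at 2-fold replaced a test. The code that makes the calls was tested on simulated data with known folds, which says nothing of the spread between samples. The genes named were all STAT probe sets, Il10, the Janus kinases, up to 4 called members per list with the largest difference for LPS over media and for SEA/LPS over LPS, and the 3 genes nearest in pattern to each STAT gene. Ifnb1, Il12a, Cmpk2, Mx1, Ifnar1, Ifnar2, Csf2ra, Irf9, Cish, Socs2, Ifng, Tbx21 and Il21 lie outside that rule, or outside it for the comparison given. Their values had been seen when they were chosen. The members and 11 pathway lists were chosen with earlier results of these data known. Promoter sequences and starts are RefSeq's. Alternatives were 3 scalings, floors at percentiles 30 and 50, no floor, sizes of 1.5-fold and 3-fold, the mean over a gene's probe sets, and leaving out probe sets that may bind several transcripts. Python 3.11.15, numpy 2.4.6 and pandas 2.3.3 were used.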

Additional observations from a re-analysis of the deposited data

Results flagged for a closer look

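Stat2 1450403_at was 0.07 log2 from media with SEA alone and -2.91 from LPS with SEA/LPS, opposite directions with a difference of -2.97 between them. With 1 array per group this difference was not tested, and the first of the values is near 0, at -0.02 with scaling to the hybridisation controls.

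Stat5b 1422102_a_at gave 0.05 for SEA over media and -1.38 for SEA/LPS over LPS, a difference of -1.43. Read the other way, LPS over media was 1.22 without SEA and SEA/LPS over SEA was -0.20, again a difference of -1.43. Stat5b 1422103_a_at gave 0.71 for LPS over media and -0.57 for SEA/LPS over SEA, a difference of -1.29. These opposite directions were not tested either. For 1422102_a_at the value of 0.05 turned to -0.04 with the hybridisation controls, and the value of -0.20 is small against the shifts between scalings.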

How the results depend on the processing

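Of the STAT probe sets counted as reported, all 6 higher with LPS and all 7 lower with SEA/LPS over LPS kept their direction under the 3 scalings, both other floors and no floor; with the hybridisation controls 4 of 6 and 6 of 7 were still past 2-fold. Leaving out probe sets that may match several transcripts leaves 6 STAT probe sets, none of Stat5a or Stat5b and without Stat3 1426587_a_at. There the count higher with LPS was 2 in place of 6, and the count lower with SEA/LPS over LPS 2 in place of 7. The count below 0 for the SEA difference with LPS minus that without was 2 in place of 6. In each of these counts the 2 were the Stat2 probe sets, designed from the same sequence record. The count higher for SEA/LPS over SEA was 1 in place of 2. At 3-fold the count lower with SEA/LPS over LPS was 4, the difference of differences had 3 below 0, and SEA/LPS over SEA had 0 higher. At 1.5-fold SEA/LPS over SEA had 5 higher, SEA/LPS over media 4 higher and 1 lower, SEA over media 1 higher, SEA/LPS over LPS 1 higher and the difference of differences 1 above 0. For Stat4, SEA/LPS over LPS was 1.01 with scaling to the 75th percentile, 1.04 with quantile normalization, 1.63 with the floor at percentile 30 and 1.49 with no floor. That comparison and the difference of differences thus had 1 probe set at least 2-fold higher in place of 0 with scaling to the 75th percentile, quantile normalization, the floor at percentile 30 and no floor. SEA/LPS over media had 3 higher in place of 0 with the 75th percentile and with quantile normalization, and 2 with the floor at percentile 30 and with no floor. SEA/LPS over SEA had 4 higher with the 75th percentile, the floor at percentile 30 and no floor, and 0 with the hybridisation controls. LPS over media had 1 lower with the hybridisation controls, and SEA over media had 1 lower without a floor. Why these counts moved was not tested, beyond the smaller or larger size asked for. No STAT difference of 2-fold or more changed sign under the scalings and floors run, where SEA/LPS over SEA was not checked for sign. No paired analysis was possible because each group is 1 sample and the labels carry no replicate numbers. With 1 array a group, the spread between samples is unknown, and for Stat4 and Stat2 1421911_at the floor limits what can be measured.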

Other observations

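In the GRCm38.p6 gene table, used for gene order only, Stat2 stands next to Il23a, which encodes a subunit of interleukin 23. Il23a read 5.0 in media, 5.4 after SEA, 235.6 after LPS and 33.6 after SEA/LPS, and Stat2 1450403_at read 78.6, 82.3, 754.6 and 100.6. Their SEA/LPS over LPS differences were -2.81 and -2.91. Stat5b, Stat5a and Stat3 are also consecutive protein-coding genes in that table. Both probe sets of Stat5b and of Stat5a were past 2-fold lower for SEA/LPS over LPS, where 4.34% of all measured probe sets were. For Stat3 this held on 1426587_a_at (-1.16) and not on 1460700_at (0.04) or 1424272_at (0.33). Whether neighbouring genes share such differences more widely was not tested.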
